A study of Mus musculus with 4 samples.

Results

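Lyve1+ Ccr2- macrophages are cells of the CNC AngII library chosen by their own counts. A barcode was kept if at least 500 genes were detected in it and at most 10% of its UMIs (unique molecular identifiers, each standing for 1 captured transcript) came from mitochondrial genes. It was taken as a macrophage if it held at least 10 UMIs summed over C1qa, C1qb, Lyz2, Csf1r and Fcer1g, fewer than 5 UMIs of Myh11 and none of Pdgfra or Pecam1. Macrophages with at least 1 UMI of Lyve1 and none of Ccr2 were the 1179 cells described here, which is 66.3% of the 1778 macrophages (95% exact binomial interval 64.1 to 68.5%) and 11.3% (10.7 to 11.9%) of the 10471 kept cells, out of 31676 barcodes in the files of 3 libraries. The other 599 macrophages held 168 Lyve1+ Ccr2+ cells, 297 Lyve1- Ccr2+ cells and 134 Lyve1- Ccr2- cells.

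The study compared the response to angiotensin II (AngII), a hormone that constricts vessels, between ascending aortic cells of second heart field (SHF) descent and cells of other origins. The CNC AngII library came from aortas of male Mef2c-mTmG mice after 3 days of AngII infusion, and CNC is not spelled out in the labels. Live cells were sorted by the fluorescent lineage reporter of this strain before droplet capture, so that every library is a sorted fraction, and how macrophages entered it is not given in the labels. The labels give neither the number nor the age of the mice, each group has 1 library, and cells of the CNC baseline sample were not analysed.

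Macrophages that carry Lyve1, a receptor for hyaluronan, line the outer layer of arteries and lie along vessels in many organs. They take up debris, dying cells and hyaluronan, and in mouse tissues they are commonly told apart from monocyte-derived macrophages by high Folr2, Timd4 and Cd163 and by low MHC class II and Ccr2. Ccr2 is the receptor through which blood monocytes follow the chemokine Ccl2 into tissue.

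The library held 150954701 UMIs in 11098 barcodes. The Lyve1+ Ccr2- cells had 14685436 UMIs in sum and a median of 11733 per cell (1080 to 31284), against 6180399 and a median of 9927 in the other macrophages. Among these the median was 11752.5 in Lyve1+ Ccr2+, 9562 in Lyve1- Ccr2+ and 7949 in Lyve1- Ccr2- cells. Scrublet marked 9 of the Lyve1+ Ccr2- cells (0.763%) and 8 of the other macrophages (1.34%) as doublets, and these were kept in the main values. Of the cell barcodes of CNC AngII, 32 also occurred in SHF AngII and 34 in SHF baseline, and 4 and 5 of them were barcodes of Lyve1+ Ccr2- cells. All levels below are CPM of the summed cells, which is a gene's UMIs over all UMIs of these cells, times 1000000. Intervals cover counting error only, and no difference has a replicate check, so no test was made.

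The markers of the label were Lyve1, Mrc1, Pf4 and C1qa, of which the rule used Lyve1 and C1qa. Mrc1 and Pf4, which it did not use, stood at 1651 and 3201 CPM in Lyve1+ Ccr2- cells, at 897 and 2634 CPM in the other macrophages and under 6 CPM in smooth muscle cells and fibroblasts. Lyve1 marks lymphatic endothelium as well. Of 5 lymphatic markers, Flt4, Mmrn1 and Ccl21a had no UMI, Prox1 had 14 UMIs in 14 cells, Pdpn had 155 UMIs in 114 cells, and the summed level was 11.5 CPM against 34.9 CPM in the other macrophages. The word resident in the label was not something the counts measured, since neither the origin nor the age of a cell can be read from them.

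Markers of other cell types were low but not absent. The 5 smooth muscle markers, with Myh11 capped by the rule, summed to 470 CPM in Lyve1+ Ccr2- cells, 509 CPM in the other macrophages and 62560 CPM in smooth muscle cells of the library. The 5 fibroblast markers summed to 127 CPM in Lyve1+ Ccr2- cells, with Pdgfra at 0 by the rule, and to 219 CPM in the other macrophages, 3425 CPM in smooth muscle cells and 16022 CPM in fibroblasts. Monocyte markers summed to 20.1 CPM in Lyve1+ Ccr2- cells, with Ccr2 at 0 by the rule, and to 569 CPM in the other macrophages. The latter sum holds Ccr2, whose UMIs placed cells in that group, so the rule set part of this difference. In Lyve1- Ccr2- cells, also at 0 of Ccr2 by the rule, the markers summed to 150 CPM. Mast cell markers stood at 39.8 and 41.9 CPM. Of the 4 parts, Lyve1- Ccr2- cells had the highest sums of smooth muscle (793 CPM), fibroblast (488 CPM) and mast cell markers (115 CPM). Scrublet marked 2.99% of Lyve1- Ccr2- cells as doublets. The part of such material in comparisons with Lyve1- Ccr2- cells was not tested. The summed levels of neutrophil (11.5 CPM), dendritic cell (6.13 CPM), B cell (1.63 CPM), endothelial (1.23 CPM, with Pecam1 at 0 by the rule), Schwann cell (0.681 CPM), T or NK cell (0.409 CPM) and mesothelial (0.204 CPM) markers were all under 12 CPM.

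Lyve1 itself chose the cells, and its values are a description. A Lyve1+ Ccr2- cell held a median of 15 Lyve1 UMIs (quartiles 7 and 26, highest 102), and the summed level was 1491 CPM. At the threshold, 49 cells had exactly 1 UMI and 153 had 2 to 4, while 134 macrophages without Ccr2 had none. Free RNA can give a lone UMI: 5.70% of 6210 smooth muscle cells (median depth 13405.5 UMIs) and 4.52% of 420 fibroblasts (13699.5 UMIs) also held a Lyve1 UMI, at 4.17 and 3.14 CPM. With every cell thinned to 3000 UMIs, a Lyve1 UMI was left in 91.1% of Lyve1+ Ccr2- cells and in 1.21% of smooth muscle cells. The smooth muscle cells and fibroblasts were chosen with fewer than 10 UMIs of the 5 macrophage genes, so their shares can understate free RNA. The lowest sum of the 5 macrophage genes in a chosen cell was 16, so no cell lay between 10 and 14, and the median was 349. The Ccr2 rule set aside 168 otherwise fitting cells, 33 of them with 1 Ccr2 UMI, and the Myh11 rule 130.

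Against all other macrophages, 130 of 5119 genes with a mean of at least 20 CPM were at least 2-fold higher in Lyve1+ Ccr2- cells (2.54%) and 128 were at least 2-fold lower (2.5%). Ratios are log2((CPM + 1)/(CPM + 1)) and their median over these genes was 0.05, with a median size of 0.22. The 10 genes that the rule used were left out of these counts. The higher genes included 13 scavenger receptors and lectins, and the lower ones included 6 MHC class II, 8 cytokine and 10 monocyte genes. Since Lyve1 and Ccr2 split the cells, genes that go with either had to differ, and the ratios describe the 2 groups without supporting the split.

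**Figure D1:**
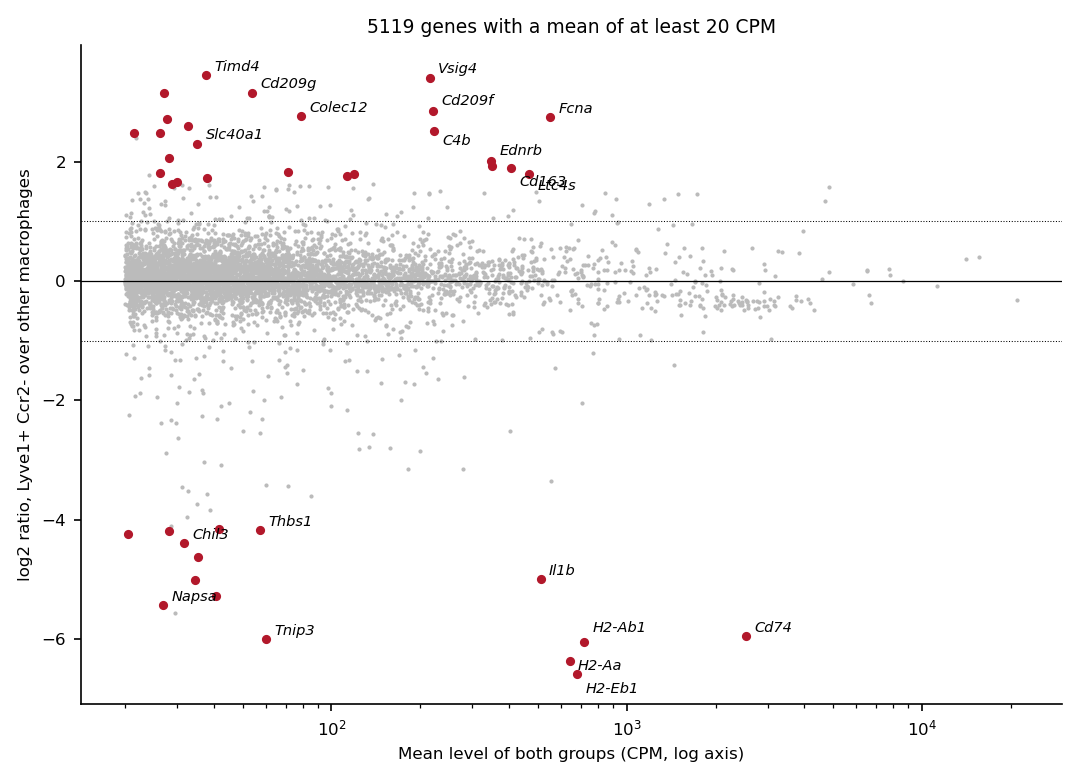
Each point is 1 of 5119 genes, with its mean level in both groups (CPM, log axis) against its log2 ratio of Lyve1+ Ccr2- over other macrophages. Red points are the 40 genes named by rule, and dotted lines mark a 2-fold difference. The lower genes reach -6.58 (H2-Eb1), and the higher ones reach 3.44 (Timd4).

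**Figure D2:**
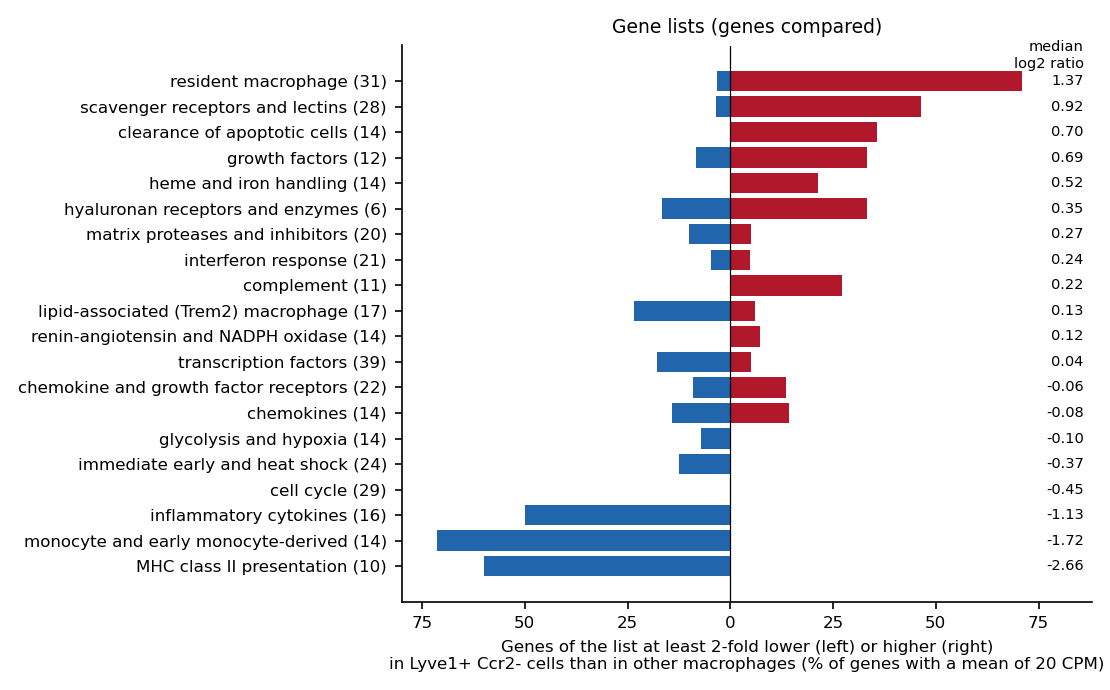
Bars give the percentage of each list's genes that were at least 2-fold higher (red, right) or lower (blue, left) in Lyve1+ Ccr2- cells than in other macrophages. The number of genes compared is in brackets and the median log2 ratio at the right, from 1.37 for resident macrophage genes to -2.66 for MHC class II presentation.

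Resident macrophage genes were the most one-sided list in the upward direction. Of its 32 genes 31 passed the minimum level, of which 22 were at least 2-fold higher, 1 was lower and 8 lay between, with a median log2 ratio of 1.37 against 0.05 over all genes. The cells and the lists were chosen with earlier results of these data known, so these counts are a description only. Timd4, a receptor for phosphatidylserine on dying cells, stood at 69.7 CPM in Lyve1+ Ccr2- cells, 10.8 CPM in Lyve1+ Ccr2+, 7.02 CPM in Lyve1- Ccr2- and 1.03 CPM in Lyve1- Ccr2+ cells. Its log2 ratio over all other macrophages was 3.44 (3.66 without the pseudocount, counting interval 3.17 to 4.20). Vsig4, a complement receptor, stood at 394, 55.8, 87.7 and 1.72 CPM in the same order (log2 ratio 3.41). Neither gene was in every cell: Timd4 was detected in 44.2% and Vsig4 in 46.9% of Lyve1+ Ccr2- cells, against 0.161% and 1.10% of smooth muscle cells, which are deeper and should lack them.

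Other genes of the list were in almost every Lyve1+ Ccr2- cell and differed less. Folr2, a folate receptor, was detected in 99.6% of cells and stood at 1331 CPM against 514 CPM in the other macrophages (log2 ratio 1.37). Cbr2, a carbonyl reductase, was in 99.7% of cells at 1929 against 743 CPM (1.37), with 280 CPM in smooth muscle cells, of which 93.6% held a UMI. F13a1, the A chain of coagulation factor XIII, was in 99.9% at 1884 against 986 CPM (0.93). Ltc4s, which makes leukotriene C4, stood at 728 against 208 CPM (1.80). Ednrb, an endothelin receptor, stood at 557 against 137 CPM (2.01). Mrc1 and Pf4, the mannose receptor and platelet factor 4, are markers of the label but did not reach 2-fold, at log2 ratios of 0.88 and 0.28. The only gene of the list on the low side was Retnla, a secreted product of alternatively activated macrophages, at 30.0 CPM against 217 CPM (-2.82), and Mgl2, at 62.0 against 125 CPM, was at the 2-fold line.

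**Figure D3:**
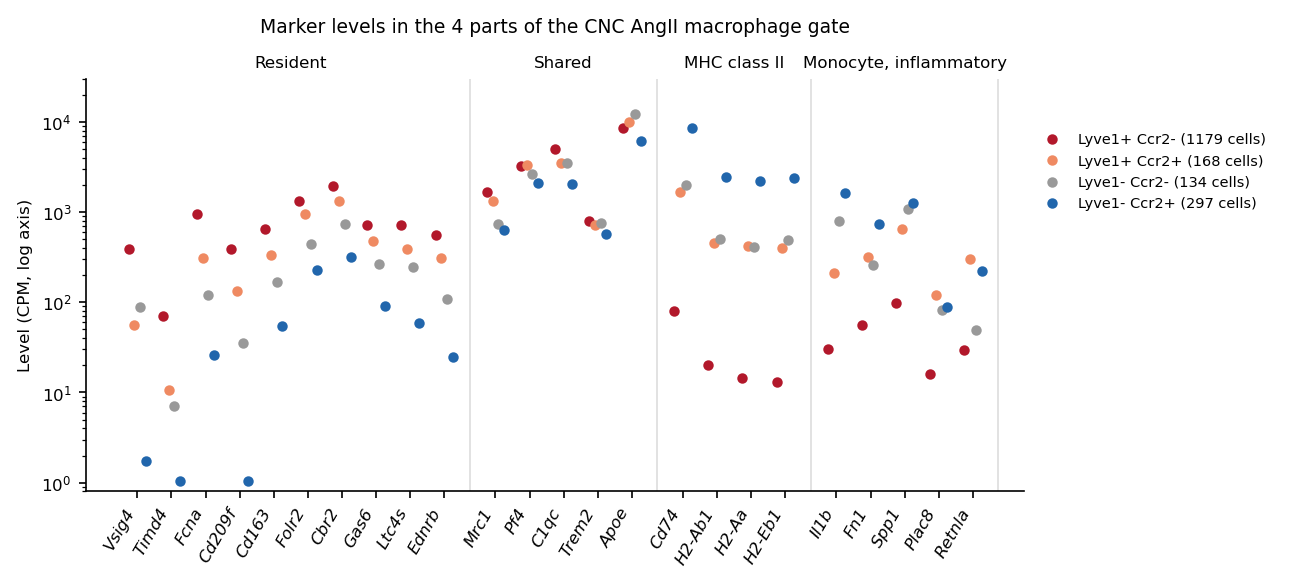
Levels of 24 genes (CPM, log axis) in the 4 parts of the macrophage gate, each point the summed UMIs of the cells of 1 part. Lyve1+ Ccr2- cells (red) lie above the other parts for the 10 resident genes and below them for the 4 MHC class II genes, with Lyve1+ Ccr2+ cells (orange) between red and Lyve1- Ccr2+ cells (blue) in both sets.

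Scavenger receptors and lectins were the second list with many higher genes. Among 28 of 31 genes compared, 13 were at least 2-fold higher, 1 was lower (Clec4e, an inducible receptor for mycobacterial and damage-linked lipids, 11.3 against 131 CPM) and the median was 0.92. This list shares 11 of those 13 genes with the resident list. Cd163, the receptor for haptoglobin-bound hemoglobin, stood at 641, 331, 168 and 55.0 CPM in Lyve1+ Ccr2-, Lyve1+ Ccr2+, Lyve1- Ccr2- and Lyve1- Ccr2+ cells. Fcna, a ficolin that opens the lectin pathway of complement, stood at 961, 311, 122 and 26.1 CPM. Colec12, a scavenger receptor of the collectin family, stood at 138 against 19.4 CPM, while smooth muscle cells and fibroblasts held 53.3 and 81.1 CPM. Stab1, which internalises modified lipoproteins and matrix fragments, stood at 1067 against 482 CPM (1.15). Msr1, Cd36, Lrp1 and the Clec4a lectins stayed within 2-fold.

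Of the Cd209 lectins, relatives of the pathogen receptor DC-SIGN, 4 members were higher. Cd209f stood at 390, 135, 35.1 and 1.03 CPM in the 4 parts as ordered above (log2 ratio 2.84 over all other macrophages). Cd209g stood at 97.4, 20.6, 13.2 and 1.03 CPM (3.16). Cd209d and Cd209b stood at 48.96 and 37.4 CPM against 6.63 and 6.31 CPM (2.71 and 2.39). These lectins were in a minority of cells, with Cd209f detected in 37.2% and Cd209b in 8.23% of Lyve1+ Ccr2- cells. Cd209f and Cd209g lie on opposite strands of chromosome 8, and 37.1% of the 50-base windows at the transcript end of Cd209f also occur in Cd209g, so reads may have been split between them and their levels are uncertain. Among cells thinned to 3000 UMIs, Cd209g was found in 43.1% of 334 cells with Cd209f and in 3.34% of those without. Their start regions are shown because the pair varied together and shares most of this sequence. The regions run from 250 bases before to 50 after the annotated start (RefSeq, GRCm38.p6), at chr8:4105715-4106014 on the minus strand for Cd209f and chr8:4134486-4134785 on the plus strand for Cd209g, each written 5′ to 3′ along its gene. Capitals mark an identical run of 180 bases, and 83.2% of 286 aligned bases were identical.
Cd209f: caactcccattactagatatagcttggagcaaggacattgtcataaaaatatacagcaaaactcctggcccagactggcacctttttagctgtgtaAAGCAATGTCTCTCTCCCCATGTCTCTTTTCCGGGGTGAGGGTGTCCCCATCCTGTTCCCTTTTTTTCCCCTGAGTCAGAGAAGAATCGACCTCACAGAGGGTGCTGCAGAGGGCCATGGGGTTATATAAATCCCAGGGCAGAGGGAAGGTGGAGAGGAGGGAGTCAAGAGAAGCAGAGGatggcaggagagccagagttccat
Cd209g: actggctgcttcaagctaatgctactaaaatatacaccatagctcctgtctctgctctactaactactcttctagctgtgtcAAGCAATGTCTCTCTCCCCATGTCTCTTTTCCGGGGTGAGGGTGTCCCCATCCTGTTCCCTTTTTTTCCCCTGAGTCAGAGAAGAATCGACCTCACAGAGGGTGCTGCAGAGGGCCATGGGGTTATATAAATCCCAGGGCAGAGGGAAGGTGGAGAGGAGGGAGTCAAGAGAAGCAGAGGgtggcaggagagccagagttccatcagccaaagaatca
The shared run crosses the annotated start in both genes. It is a description of the sequence, and no factor binding was measured.

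Genes for the clearance of dying cells were next. Of 24 genes 14 were compared, of which 5 were higher (Gas6, Pros1, Timd4, Stab1 and C4b), none lower and the median was 0.70. With no minimum level, the median over 22 genes was -0.00, so the upward median belongs to the genes that passed it. Gas6, the bridge between phosphatidylserine and the Mertk and Axl receptors, stood at 726 against 258 CPM (1.49), with 851 CPM in fibroblasts. Pros1, protein S, stood at 89.2 against 29.1 CPM (1.58). The receptor Mertk itself stood at 48.4 against 29.8 CPM (0.68). Against Lyve1- Ccr2- cells the same 5 genes were higher, 1 (Itgb5) was lower and the median was 0.23.

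In the complement list 11 of 18 genes were compared, 3 were higher, none was lower and the median was 0.22. C4b, the complement component cleaved after C1 activation, stood at 379 CPM against 99.5, 133 and 13.7 CPM in Lyve1+ Ccr2+, Lyve1- Ccr2- and Lyve1- Ccr2+ cells, and at 151 CPM in fibroblasts. Its sequence is close to that of C4a, so its level is uncertain. Vsig4, described above, was also among the higher genes. The receptors C5ar1 and C3ar1 differed little, at log2 ratios of 0.13 and 0.22.

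Heme and iron handling genes were mostly shifted upward by less than 2-fold. Of 21 genes 14 were compared, 3 were higher, none was lower and the median was 0.52. Hmox1, which degrades heme, stood at 2185 CPM against 799 CPM (1.45). Slc40a1, the iron exporter ferroportin, stood at 59.0 against 11.2 CPM (2.30) and was detected in 27.1% of Lyve1+ Ccr2- cells. Cd163 was the third gene. The ferritin chains Fth1 and Ftl1 stood at 15916 and 17776 CPM, with log2 ratios of 0.37 and 0.40.

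Growth factors gave 4 higher genes, 1 lower gene and a median of 0.69 among 12 of 28 genes compared, and a median of 0.095 over 27 genes with no minimum level. Igf1, insulin-like growth factor 1, stood at 280 CPM against 99.7 CPM (1.48), with 193 CPM in Lyve1- Ccr2- cells, 34.7 CPM in Lyve1- Ccr2+ cells and 1107 CPM in fibroblasts. Pdgfc and Vegfb stood at 32.1 and 54.5 CPM against 13.8 and 25.9 CPM. The lower gene was Areg, an EGF receptor ligand, at 9.47 against 111 CPM (-3.42).

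MHC class II presentation was the list with the lowest median. Of 16 genes 10 were compared, none was higher, 6 were lower and the median was -2.66. H2-Eb1, a beta chain of the class II molecule, stood at 13.01 CPM in Lyve1+ Ccr2- cells, 397 CPM in Lyve1+ Ccr2+, 495 CPM in Lyve1- Ccr2- and 2369 CPM in Lyve1- Ccr2+ cells. H2-Aa, the alpha chain, stood at 14.4, 425, 409 and 2222 CPM. H2-Ab1 stood at 20.4, 457, 506 and 2470 CPM. In all 3 chains Lyve1+ Ccr2- cells were lowest and Lyve1- Ccr2+ cells highest, and their log2 ratios over all other macrophages were -6.58, -6.37 and -6.05. Cd74, the invariant chain that escorts class II molecules, stood at 79.9 against 4988 CPM (-5.95), and its exons overlap those of Mir5107. The peptide-loading genes H2-DMa and H2-DMb1 were lower to a smaller extent (-2.77 and -2.55). Ciita, the master activator of these genes, was below the minimum level, at 0.204 against 10.7 CPM. Costimulatory Cd86 and Cd40 and the protease Ctss did not follow, at 0.05, 0.79 and -0.45.

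Lyve1- Ccr2- cells also lack Ccr2 UMIs, and their H2-Ab1 level was 506 CPM (log2 ratio of Lyve1+ Ccr2- cells over them -4.57). Cell by cell, the UMIs of H2-Aa, H2-Ab1, H2-Eb1 and Cd74 were summed after thinning to 3000 UMIs. Of 1172 Lyve1+ Ccr2- cells deep enough, 81.5% held none, 5 held at least 10 (0.427%, interval 0.139 to 0.993%) and the highest held 53. At least 10 were held by 17.3% of Lyve1+ Ccr2+ cells (11.9 to 23.8%), 13.2% of Lyve1- Ccr2- cells (7.75 to 20.6%) and 55.7% of Lyve1- Ccr2+ cells (49.9 to 61.5%). Smooth muscle cells, chosen with fewer than 10 UMIs of the 5 macrophage genes, had none in 98.0% and at least 10 in 3 of 6208 cells. That choice can make them understate free RNA. Between 1 and 4 such UMIs were held by 17.4% of Lyve1+ Ccr2- cells.

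**Figure D4:**
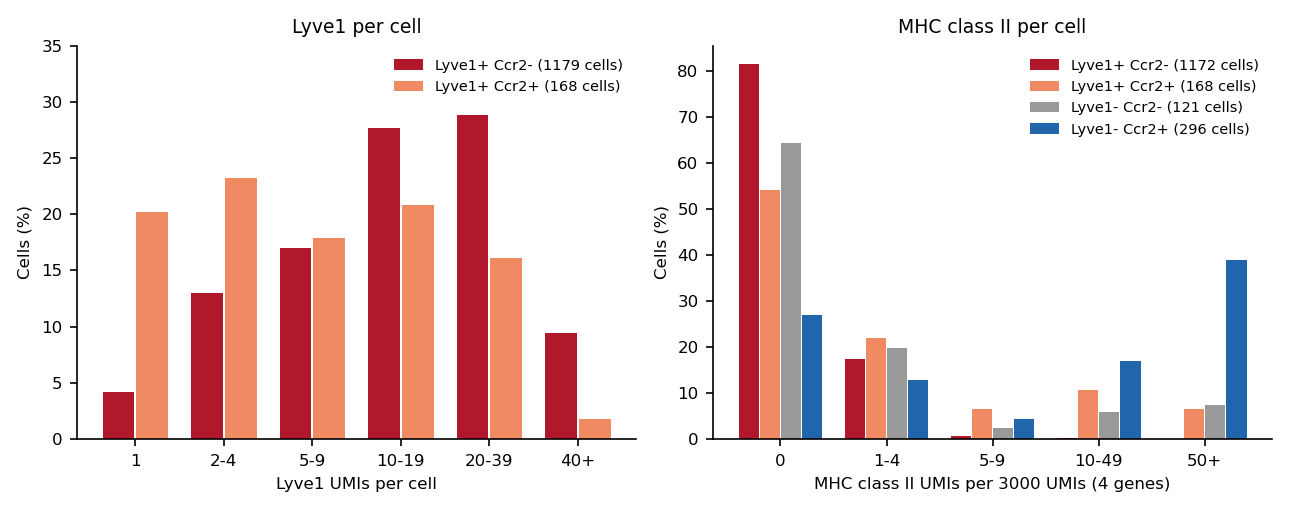
Left, share of cells (%) by Lyve1 UMIs per cell in Lyve1+ Ccr2- (1179 cells) and Lyve1+ Ccr2+ macrophages (168 cells). Right, share of cells by the UMIs of 4 MHC class II genes per 3000 UMIs in the 4 parts, where 81.5% of Lyve1+ Ccr2- cells are at 0 and 38.9% of Lyve1- Ccr2+ cells hold 50 or more.

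The start regions of 2 class II genes are shown because the chains varied together over the 4 parts, and because class II promoters are known for a Y box with the letters CCAAT. The letters CCAAT were searched on both strands (ATTGG on the other), and they were found in 37.4% of all 32851 RefSeq start regions of the same length, so a match is common. Sequences are from RefSeq, GRCm38.p6, at chr17:34287774-34288073 on the minus strand for H2-Aa and chr17:34305617-34305916 on the plus strand for H2-Eb1, 5′ to 3′ along the gene, with the letters ATTGG or CCAAT in capitals.
H2-Aa: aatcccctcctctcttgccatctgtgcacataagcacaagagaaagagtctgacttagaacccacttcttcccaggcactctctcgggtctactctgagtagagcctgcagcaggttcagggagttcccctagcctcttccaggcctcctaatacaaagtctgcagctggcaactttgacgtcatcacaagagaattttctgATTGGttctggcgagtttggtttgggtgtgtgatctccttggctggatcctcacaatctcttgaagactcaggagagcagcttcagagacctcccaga
H2-Eb1: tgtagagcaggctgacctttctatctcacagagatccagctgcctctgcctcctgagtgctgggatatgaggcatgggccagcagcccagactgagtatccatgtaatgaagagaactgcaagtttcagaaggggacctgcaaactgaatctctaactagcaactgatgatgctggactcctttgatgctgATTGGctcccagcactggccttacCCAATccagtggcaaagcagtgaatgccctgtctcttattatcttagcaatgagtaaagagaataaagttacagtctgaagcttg
In H2-Aa the match began 48 bases before the start, and in H2-Eb1 the 2 matches began 59 and 35 bases before it. A match is not a bound site, and binding was not measured.

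Monocyte and early monocyte-derived genes were lower. Of 23 genes 14 were compared, none was higher, 10 were lower and the median was -1.72. Plac8, a marker of Ly6C-high monocytes, stood at 16 CPM against 121, 82.5 and 87.7 CPM in Lyve1+ Ccr2+, Lyve1- Ccr2- and Lyve1- Ccr2+ cells. Fn1, fibronectin, stood at 56.0 against 504 CPM (-3.14), and smooth muscle cells held 1068 CPM. Thbs1, the matrix protein thrombospondin 1, stood at 5.11 against 109 CPM (-4.18). Chil3, a chitinase-like protein of monocytes, stood at 1.97 against 61.3 CPM (-4.39), and part of its transcript end is shared with Chil4. The fractalkine receptor Cx3cr1 was also lower, at 60.7 against 137 CPM (-1.16), while Ifitm3 (0.20) and Msrb1 (0.35) did not differ by 2-fold.

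Inflammatory cytokine genes were lower in 8 of 16 genes compared (22 in the list), none was higher and the median was -1.13. Il1b, interleukin 1 beta, stood at 30.3 CPM in Lyve1+ Ccr2- cells, 209 CPM in Lyve1+ Ccr2+, 800 CPM in Lyve1- Ccr2- and 1641 CPM in Lyve1- Ccr2+ cells (log2 ratio over all others -4.99), and it was detected in 7.12% of Lyve1+ Ccr2- cells against 38.1% of the others. Ptgs2, the inducible cyclooxygenase, stood at 12.1 against 158 CPM (-3.60), with 87.7 CPM in smooth muscle cells. Nlrp3, the inflammasome sensor, stood at 27.2 against 108 CPM (-1.95), and Arg1, arginase 1, at 5.04 against 70.7 CPM (-3.57). Tnf (-0.92) and Il18 (-0.05) were within 2-fold. Against Lyve1- Ccr2- cells alone, 14 of 16 genes were lower, with Tnf (-1.77) and Nfkbia (-1.20) among them.

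Chemokines were split, with 2 higher, 2 lower and a median of -0.08 among 14 of 23 genes (-0.74 over all 23 with no minimum level). Ccl8, a ligand of several chemokine receptors, stood at 2534 CPM against 922 CPM (1.46), and Ccl24, which draws eosinophils, at 100 against 43.8 CPM (1.17). The lower genes were Cxcl1, which draws neutrophils (119 against 266 CPM), and the interferon-induced Cxcl10 (101 against 238 CPM). Ccl2 and Ccl7, ligands of Ccr2, were abundant in both groups, at 1105 and 958 CPM against 1223 and 768 CPM. Cxcl2 stood at 2074 against 4078 CPM (-0.98). Against Lyve1- Ccr2- cells alone the list was not split: 1 of 14 chemokines was higher (Ccl6), 6 were lower and the median was -0.45. Ccl8 did not reach 2-fold there or against Lyve1+ Ccr2+ cells. Among receptors, 3 of 22 compared (30 in the list) were higher than in all other macrophages, Ednrb, Tgfbr2 (1.04) and Nrp2 (1.05), and 2 were lower, Cx3cr1 and Cxcr4 (-1.93), with a median of -0.06. Against Lyve1+ Ccr2+ cells alone, all 21 receptors compared were within 2-fold.

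Transcription factors gave 2 higher and 7 lower genes among 39 of 51 compared, with a median of 0.04. The higher genes were Cebpd (239 against 106 CPM) and Tfec (38.3 against 18.0 CPM). The lower ones were the orphan receptors Nr4a1, Nr4a2 and Nr4a3 (-1.34, -2.05 and -1.93), the inhibitors of differentiation Id2 and Id3 (-1.30 and -1.33), Bhlhe40 (-2.38) and Runx3 (-2.63). Against Lyve1- Ccr2- cells alone, Tfec was the only higher gene and the same 7 were lower. Against Lyve1+ Ccr2+ cells alone, none of 35 transcription factors was higher and 1 (Nr4a2) was lower, so most of these differences were not seen against the other Lyve1+ cells. Maf, which helps to maintain macrophage identity, was at 588 CPM with a log2 ratio of 0.70 over all other macrophages. Id3 stood at 65.0 against 164 CPM, with 1051 CPM in smooth muscle cells, and the part of free RNA in its level was not tested. Immediate early and heat shock genes had none higher, 3 lower (Fosb, Fosl2 and Nr4a1) and a median of -0.37 among 24 genes.

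For the next lists the measure is all genes compared, of which 2.54% were at least 2-fold higher and 2.5% lower. In the lipid-associated list 17 of 24 genes were compared, with 1 higher (Cd63), 4 lower and a median of 0.13. Trem2 and Apoe were alike in the summed groups (0.27 and 0.01), whereas Spp1, osteopontin, stood at 98.9 against 1012 CPM (-3.34) and the lipase Lpl at 40.4 against 184 CPM (-2.16). Apoe was uneven within them. Among thinned macrophages without Ccr2, it stood at 14331 CPM without Lyve1 and at 6981 CPM with 20 or more Lyve1 UMIs. Groups with fewer Lyve1 UMIs held 10363 to 11689 CPM. In the hyaluronan list 6 of 14 genes were compared. Hyal2, a hyaluronidase (46.0 against 17.0 CPM), and Cemip2 (39.2 against 15.5 CPM) were higher, and the receptor Cd44 was lower (73.5 against 153 CPM, -1.05), with a median of 0.35. Among matrix proteases and inhibitors, with 20 of 32 compared and a median of 0.27, Timp2 was higher (1692 against 690 CPM) and Adam8 and Timp1 were lower. The interferon list (21 of 29 compared, median 0.24) had Ifi27l2a higher (7279 against 2443 CPM) and Cxcl10 lower. Glycolysis and hypoxia genes (14 of 25, median -0.10) had Pfkp lower.

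The hormone given has its own receptors, and they were not detected in these cells. Agtr1a, Agtr1b and Agtr2 had 0 UMIs among 14685436, which allows up to 0.204 CPM, and 0 of 1179 cells, which allows a share of up to 0.254% of cells with a UMI. Agtr1a was also at 0 in the other macrophages (up to 0.485 CPM) and stood at 1.37 CPM in smooth muscle cells. Of the renin-angiotensin and NADPH oxidase list 14 of 27 genes were compared, and Agtrap, which binds and internalises the type 1 receptor, was higher (85.6 against 39.97 CPM, 1.08), with none lower and a median of 0.12. The oxidase subunits Cybb (175 against 249 CPM) and Ncf1 (211 against 184 CPM) differed by less than 2-fold.

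The naming rule picked further genes, most of them outside the lists. Cpne8 (49.3 against 4.69 CPM), Chp2 (56.7 against 8.58 CPM), Fam167b (45.4 against 7.28 CPM), Grap (112 against 30.7 CPM), Hgsnat (185 against 52.6 CPM), Gpt2 (44.1 against 13.6 CPM) and Xlr (58.6 against 17.0 CPM) were higher in Lyve1+ Ccr2- cells. Fibroblasts held 55.0 CPM of Cpne8, and the part of free RNA in its level was not tested. Adamtsl5, Maoa, Pmp22, Ctsf and Kank2 were also higher (log2 ratios 1.66 to 2.48). Each of these 5 also stood above 20 CPM in smooth muscle cells, and the summed smooth muscle markers stood at 470 CPM in Lyve1+ Ccr2- cells and 509 CPM in the other macrophages. Their part in these ratios was not tested. Tnip3, an inhibitor of NF-kappaB signalling, stood at 0.885 against 119 CPM (-5.99), with 13 UMIs in the Lyve1+ Ccr2- cells. AA467197, whose exons overlap Mir147, Ltb4r1, a leukotriene B4 receptor, and Kcnn4, a potassium channel, had log2 ratios of -5.28, -5.00 and -4.62. The transcript ends of Xlr, Cbr2, Spp1 and Cpne8 share 18.2%, 14.8%, 8.23% and 7.52% of their windows with Gm14599, Gm11771, Gm42793 and Adamts13. The levels of these genes are therefore uncertain. Slc7a11, the cystine importer, stood at 1.16 against 39.8 CPM. Dusp5 and Gngt2 had log2 ratios of -4.19 and -4.15. Napsa of the monocyte list (-5.42) and Fxyd2 of the resident list, a regulator of the sodium pump (1.75), were also picked.

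The 4 parts of the gate were then set side by side. Comparisons share the Lyve1+ Ccr2- cells, so their ratios are not independent. Against Lyve1- Ccr2+ cells, 325 of 5081 genes were at least 2-fold higher (6.4%) and 211 lower (4.15%). Against Lyve1- Ccr2- cells, 143 of 5184 were higher (2.76%) and 188 lower (3.63%), and against Lyve1+ Ccr2+ cells, 54 of 5159 were higher (1.05%) and 47 lower (0.911%). The median size of the log2 ratio was 0.31, 0.26 and 0.16 in the same order, and Lyve1+ Ccr2+ cells lay nearest by this measure.

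Lyve1+ Ccr2+ cells stood between Lyve1+ Ccr2- and Lyve1- Ccr2+ cells for 28 of 31 resident genes, 8 of 10 MHC class II genes and 12 of 14 monocyte genes, while 56.1% of all genes compared did so. This place was not particular to these lists, since 12 of 12 growth factors and 25 of 28 scavenger receptors and lectins also held it. It was held by 6 of 14 chemokines and 15 of 29 cell cycle genes. Among the 31 resident genes, 27 had their top level in Lyve1+ Ccr2- cells, against 34.3% of all genes. Compared with Lyve1+ Ccr2+ cells alone, 10 of 31 resident genes were at least 2-fold higher in Lyve1+ Ccr2- cells (median 0.61), 6 of 10 MHC class II genes were lower (median -1.53), and 3 of 15 cytokine genes were lower. Retnla was an exception to the order, with 299 CPM in Lyve1+ Ccr2+, 223 CPM in Lyve1- Ccr2+, 49.1 CPM in Lyve1- Ccr2- and 30.0 CPM in Lyve1+ Ccr2- cells. Relative to Lyve1- Ccr2- cells, 21 of 30 resident genes were higher and none lower (median 1.41). Marco and Ccl24 were not among them, at 37.7 against 34.2 CPM and 100 against 118 CPM.

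Resident genes were also set against the amount of Lyve1. Cells without Ccr2 were grouped by their Lyve1 UMIs and thinned to 3000 UMIs, and the division of cells with 5 or more at 20 UMIs was made after the data had been seen. Cd209f stood at 27.5 CPM in 121 cells without Lyve1, at 44.4, 169 and 238 CPM in cells with 1, 2 to 4 and 5 to 19 Lyve1 UMIs, and at 538 CPM (interval 500 to 579) in 451 cells with 20 or more. Ltc4s stood at 209, 311, 484, 672 and 937 CPM in the same order, and F13a1 at 758, 1207, 1491, 1911 and 2188 CPM. Of the 31 resident genes, 16 were in ascending order over the 5 groups like these, 22 were highest in the group with 20 or more and 24 lowest in the group without Lyve1. The same counts were not made over all genes, so these orders are not shown to be particular to resident genes. Among the 15 others, Timd4 stood at 8.26, 44.4, 28.9, 65.3 and 96.1 CPM, Slc40a1 at 27.5, 44.4, 46.7, 60.8 and 51.0 CPM, and Pf4 at 2518, 3385, 3582, 3537 and 3075 CPM. Il1b was in descending order, at 945, 141, 68.9, 41.8 and 14.04 CPM. H2-Ab1 stood at 675 CPM without Lyve1 and at 22.2, 42.2, 27.2 and 9.61 CPM with it. The 45 cells with a lone Lyve1 UMI held 3 H2-Ab1 UMIs (interval 4.58 to 64.9 CPM). H2-Ab1 was found in 6.67% of these cells and in 17.4% of the cells without Lyve1. The interval does not cover differences between cells, so how far these groups lie apart is uncertain. The Cd209f level of cells with a lone Lyve1 UMI (16.3 to 96.7 CPM) overlapped that of cells without Lyve1 (13.2 to 50.7 CPM), and Ccl8 was alike (1622 and 1598 CPM). Trem2 differed little (724 to 844 CPM over the 5 groups). Median depth before thinning was 8260, 9315, 8959.5, 10638 and 14831 UMIs, so Lyve1 UMI groups are depth groups too, and its part in these orders beyond thinning was not tested.

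**Figure D5:**
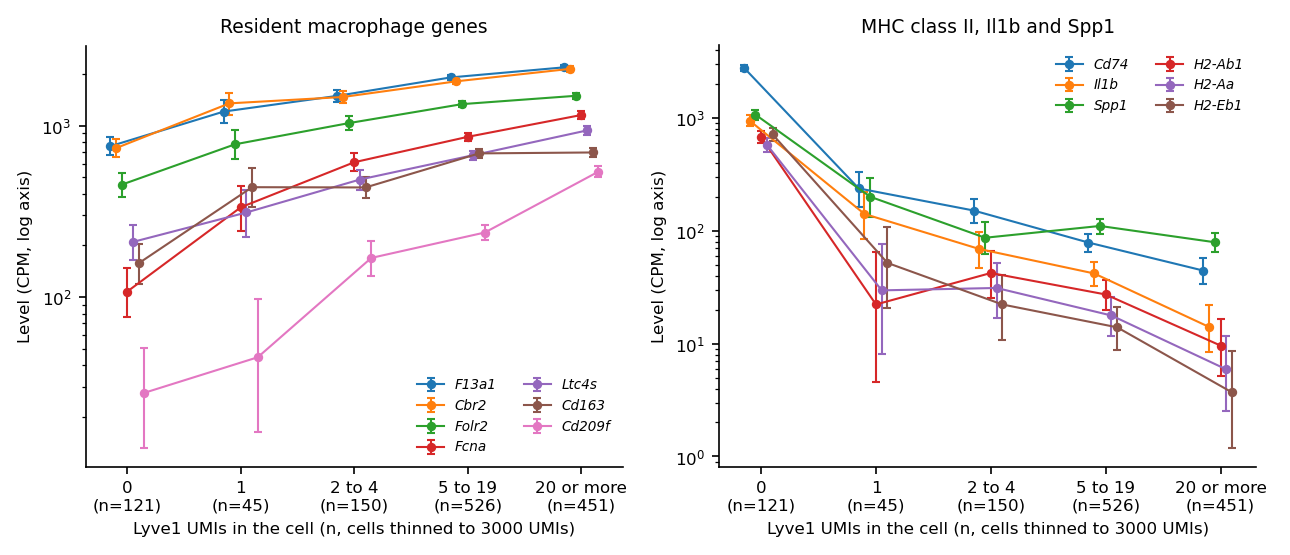
Levels (CPM, log axis) of resident genes (left) and of MHC class II genes, Il1b and Spp1 (right) in macrophages without Ccr2, by Lyve1 UMIs per cell after thinning to 3000 UMIs. Bars are 95% exact Poisson intervals of counting error. Cd209f goes from 27.5 to 538 CPM and Il1b from 945 to 14.04 CPM.

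Dividing cells were present among the Lyve1+ Ccr2- macrophages. At least 2 UMIs of Mki67 and Top2a, which are made in cycling cells, were held by 13.5% of thinned cells (11.6 to 15.6%), against 21.03% of the other macrophages (17.8 to 24.6%), 0.902% of smooth muscle cells and 6.22% of fibroblasts. Without thinning the shares were 25.6% and 36.4%. The cell cycle list had no gene past 2-fold among 29 of 32 compared, and its median was -0.45. Of these 29 genes, 21 (72.4%) had their lowest level of the 4 parts in Lyve1+ Ccr2- cells, against 22.4% of all genes. Mki67 stood at 135 CPM against 186, 182 and 188 CPM in Lyve1+ Ccr2+, Lyve1- Ccr2- and Lyve1- Ccr2+ cells.

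The Lyve1+ Ccr2- cells were not uniform. Over 5094 genes in thinned cells, the median ratio of variance to mean was 1.03, near the value of 1 that counting alone gives, and 129 genes were above 2. Ccl8 had a ratio of 29.6, with a UMI in 72.3% of cells and 56.1% of its UMIs in the tenth of cells with most of it. Cxcl2 (16.3), Apoe (19.95), Fth1 (18.99) and Wfdc17 (16.4) followed. Across 1172 cells of 1 library, Cxcl2 went with Nfkbia (Pearson r 0.69) and Junb (0.64), Fth1 with Ftl1 (0.68) and Hmox1 (0.62), Wfdc17 with Ccl6 (0.63) and Ccl8 (0.53), and Ccl3 with Ccl4 (0.55). Histone genes gave the top value (0.80 for Hist1h2ap and Hist1h1b). Of 1770 pairs among the 60 most variable genes, 19 reached 0.5, and the median was -0.00. These are descriptions across cells, which share a library and its free RNA.

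Some of the variable genes belong to other cell types. Mgp, a matrix protein of smooth muscle cells and fibroblasts, had a ratio of 31.7, and a set of 8 stromal genes reached 10 UMIs in 14 of 1172 cells (1.19%). Cma1, a mast cell protease, had a ratio of 25.3 that came from 4 cells. Their part in the levels above was not tested, while leaving out cells with any Myh11 UMI gave 140 higher and 141 lower genes. Genes found in part of the cells overlapped to different extents. Cd209f was found in 44.6% of 204 cells with Timd4 and in 25.1% of cells without. It was found in 26.7% of 453 cells with Vsig4 and in 29.6% without, and Timd4 in 20.97% and 15.2% of the same cells.

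The sorted SHF libraries held almost no such cells. The same rule found 15 macrophages and no Lyve1+ Ccr2- cell among 9490 kept cells of SHF AngII, which allows a share of up to 0.0389% (exact binomial limit). In SHF baseline it found 6 macrophages among 8579 cells, of which 1 was Lyve1+ Ccr2-, with 5 Lyve1 UMIs and no Timd4, Vsig4 or H2-Ab1 UMI among 8263. The SHF baseline file lists 18760 genes, against 32285 in SHF AngII and in CNC AngII, so a gene can be missing from it without having been measured as 0. The 15 macrophages of SHF AngII had no Lyve1 UMI and stood at 3745 CPM of H2-Ab1 and 2113 CPM of Il1b. Each library is a fraction sorted by the lineage reporter, so these are shares of a sort and not of the aortic wall. Lyve1+ Ccr2- cells of the CNC sort without AngII were not analysed here, and lineage, sort and library cannot be told apart.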

How the data were processed

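Cells were profiled with the 10x Genomics droplet system, and the files of 3 of 4 labelled samples were used. The values deposited by the authors are raw UMI counts of each gene in each barcode, not normalised. The submitters' processing notes name fastp, STAR 2.5, HTSeq 0.6.1 and the build mm10, without roles, and the gene annotation is not given in the sources used here.

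UMIs were summed over cells and divided by their total (CPM). Ratios carry a pseudocount of 1 CPM, and genes needed a mean of 20 CPM in the 2 groups compared. Intervals are 95% exact Poisson, conditional binomial (ratios, without the pseudocount) or Clopper-Pearson, and cover counting error only. Smooth muscle cells were kept cells with at least 5 Myh11 UMIs, and fibroblasts had at least 2 Pdgfra UMIs. Both had fewer than 10 macrophage gate UMIs, so they can understate free RNA of macrophages. For shares of cells, each cell was thinned to 3000 UMIs, which left out 7 Lyve1+ Ccr2- and 14 other macrophages. Scrublet (scanpy 1.11.5, rate 8e-06 per cell, seed 0) marked 279 of 10670 scored cells (2.61%). The scripts were tested on simulated data and ran in Python 3.11.15 with numpy 2.4.6 and scipy 1.17.1.

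Named genes are the 25 highest and 15 lowest log2 ratios among genes with a UMI in at least 10% of the higher group, without rule, mitochondrial and ribosomal protein genes, and any gene of the 20 lists. Lists overlap in members, Clec7a, Mx1 and Mx2 were not analysed here, some list members are not reported here, and the cells and lists were chosen with earlier results of these data known. Overlaps of exons were read from GENCODE M21, and start regions of 29 of 40 named genes were matched in RefSeq. With 1 library per group no test was made. Alternatives changed the cell filter, the gates, the comparison group, depth, weighting, pseudocount, gene minimum, scaling and free RNA.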

Additional observations from a re-analysis of the deposited data

How the results depend on the processing

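The main limit is that 1 library per group gives no replicate check. Under 16 changes of setting and 2 more comparison groups chosen after seeing the data, the share of Lyve1+ Ccr2- cells moved past its counting interval only without cycling cells, to 69.7%. The count of higher genes was 325 against Lyve1- Ccr2+ cells, 45 with a minimum of 100 CPM, 403 with no minimum, and, in the added comparisons, 70 against other macrophages low in MHC class II and 54 against Lyve1+ Ccr2+ cells. The count of lower genes was 211, 38 and 525 in the first 3 of these and 47 against Lyve1+ Ccr2+ cells. The other 32 of 42 values of these 3 results stayed within 1.5 times or the interval. Of 671 ratios of named genes 487 stayed within their counting interval, 183 moved outside it and kept their sign, and 1 changed sign: the log2 ratio of H2-Ab1 was 0.0129 against cells chosen for low MHC class II, where the choice sets the value. Of 360 list medians 84 moved. With no gene minimum, the median went from 0.35 to -0.15 in the hyaluronan list, from 0.13 to -0.15 in the lipid-associated list, from 0.27 to -0.06 in the protease list, from 0.22 to 0.36 in the complement list and from 0.12 to 0.04 in the renin-angiotensin list. At 100 CPM it was -4.36 for MHC class II, 0.39 for receptors and -1.05 for hyaluronan, where Cd44 was the 1 gene left. Scaling by median ratios gave 117 higher and 147 lower genes. No paired analysis was possible because each group has 1 library. Genes under about 20 CPM have no UMI in most cells, and absence at a count of 0 is not shown.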
